A study of Canis lupus familiaris with 21 samples.

Results

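E-cadherin and the proteins bound to its cytoplasmic tail were examined at the mRNA level in canine cutaneous histiocytoma (CCH), a skin tumor of dogs that derives from Langerhans cells and usually regresses on its own. The genes were chosen by name: CDH1, CTNND1, CTNNB1, CTNNA1, VCL and AFDN, 6 of the 21399 genes in the count tables, each with 1 entry. QuantSeq 3′ sequencing, which reads the 3′ end of polyadenylated transcripts, had been applied to 21 samples of formalin-fixed, paraffin-embedded tumors of privately owned dogs. Stage 1 was represented by group 1 (n = 5, tumor cell-rich, dogs of 0.5 to 5 years, 1 age unknown). Group 2a (n = 5, 0.6 to 3 years) held tumor cell-rich areas punched from stage 2 tumors. Group 2b (n = 6, 0.3 to 6 years by the labels, 1 age unknown) held lymphocyte-rich areas of stage 2 tumors. In the study's list of samples, group 2b has no dog under 0.5 years, and its dogs differ from those of group 2a. In group 2b, 4 samples were pools of several dogs and 2 came from a single dog, so that its 6 samples held 17 dogs. Stage 3 was represented by group 3 (n = 5, lymphocyte-rich, 1.5 to 9 years). All tumors were spontaneous, and no treatments were compared.

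E-cadherin, the product of CDH1, spans the membrane and binds E-cadherin on the neighboring cell. Its tail carries beta-catenin (CTNNB1), which recruits alpha-catenin (CTNNA1), the link to actin filaments, and a separate catenin of the delta family (CTNND1), which holds the cadherin at the cell surface. Vinculin (VCL) joins alpha-catenin under tension, and afadin (AFDN) ties the junction to nectins and to actin. In skin, keratinocytes are the main E-cadherin-bearing cells, and Langerhans cells use the same molecule to adhere to them. Beta-catenin also acts in the nucleus as the effector of the Wnt pathway, where it binds transcription factors of the TCF/LEF family.

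Between 2113393 and 3559404 reads per sample were assigned to genes, with a median of 2514859. All values are normalized counts (the raw count divided by a size factor per sample) unless said otherwise, and 3 reads, taken as the smallest count that can be told from 0, correspond to 2.36 to 3.51 normalized counts. The labelled cell types were checked on marker genes. The summed level of 10 T cell markers was 50.1 to 1855 in group 1, 459 to 1498 in group 2a, 2609 to 3998 in group 2b and 2950 to 4534 in group 3, so that lymphocyte-rich and tumor cell-rich samples did not overlap in this sum. The 6 B cell markers did not separate them in the same way, with 397 to 610, 339 to 868, 1029 to 1745 and 289 to 1939 in groups 1, 2a, 2b and 3. The 7 histiocyte markers found of 8 summed to 3850 to 4798, 3898 to 6156, 3466 to 4863 and 3969 to 5432 in groups 1, 2a, 2b and 3, and CD1A6 among them was at 0 in groups 1 and 3. Keratinocyte markers were present in every group. The 14 found of 15 summed to 958 to 13777 in group 1 (median 4401), 281 to 3390 in group 2a (median 1983), 206 to 2313 in group 2b (median 699) and 704 to 7285 in group 3 (median 1820), and none was at 0 in all samples of a group. Markers of gland epithelium (KRT7, KRT8, KRT18, KRT19 and EPCAM) summed to 13.5 to 154 in all samples but group 2a replicate 3, where the sum was 260. KRT18 alone made up 238 of it. In bulk tissue, fewer cells of a type and less RNA per cell cannot be told apart.

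CDH1 (chromosome 5, 81341865 to 81420857, assembly UU_Cfam_GSD_1.0) had the largest spread relative to its mean of the 6 members in every group. In group 1 it measured 195, 134, 331, 318 and 63.4 in replicates 1 to 5, a mean of 208 ± 116 (SD, n = 5). The group 2a values were 64.0, 68.8, 194, 79.5 and 46.5, a mean of 90.6 ± 59.2 (SD, n = 5). In group 2b, replicates 1 to 6 gave 54.1, 78.5, 14.9, 32.9, 25.1 and 57.3, a mean of 43.8 ± 23.7 (SD, n = 6). The group 3 samples had 79.9, 249, 84.4, 71.5 and 117, a mean of 120 ± 74.0 (SD, n = 5). The order of the means was therefore group 1, 3, 2a and 2b, and each group overlapped with the next in that order. A single sample stood far above the rest in both group 2a (replicate 3) and group 3 (replicate 2). Group 2a replicate 3 also had the highest sum of gland epithelium markers, 260, against 13.5 to 61.0 in the other 4 samples of its group. KRT18 alone made up 238 of it. The mean log2(normalized count + 1) of these markers was 3.36 in this sample. That was the highest of its group but below group 3 replicate 1 (4.20). The part of these markers in the CDH1 value of the sample was not tested. In group 2b, the 3 pools of 4 dogs (replicates 3 to 5) had the lowest CDH1.

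CTNND1 (chromosome 18, 38884472 to 38938494) was ordered as group 1, 2a, 3 and 2b, with little overlap. It measured 294, 393, 475, 231 and 314 in group 1, a mean of 341 ± 94.6 (SD, n = 5). In group 2a it was 224, 275, 212, 202 and 185, a mean of 220 ± 34.1 (SD, n = 5). The group 2b values were 119, 119, 101, 155, 142 and 172, a mean of 135 ± 26.3 (SD, n = 6), and those of group 3 were 200, 174, 162, 200 and 181, a mean of 183 ± 16.8 (SD, n = 5). Between each group and the next lower one (1, 2a, 3, 2b), 4 of 5 samples lay above all samples of the lower group.

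AFDN (chromosome 1, 55950758 to 56088230) had higher means in groups 1 and 2a than in groups 2b and 3. Group 1 had 313, 213, 293, 547 and 239, a mean of 321 ± 132 (SD, n = 5), and group 2a had 199, 436, 287, 361 and 243, a mean of 305 ± 94.3 (SD, n = 5). Group 2b had 176, 121, 62.4, 159, 171 and 152, a mean of 140 ± 42.9 (SD, n = 6), and group 3 had 136, 240, 192, 114 and 220, a mean of 180 ± 53.9 (SD, n = 5). All 6 samples of group 2b lay below all 5 of group 2a, whereas group 3 overlapped with each of the other groups.

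The remaining members varied less between groups. CTNNB1 (chromosome 23, 10790373 to 10803572) had means of 77.2 ± 23.3, 94.8 ± 23.1, 114 ± 23.3 and 113 ± 53.8 in groups 1, 2a, 2b and 3 (SD), and in group 3 it ranged from 43.6 to 186, the whole range of the 21 samples. CTNNA1 (chromosome 11, 26323192 to 26509271) had means of 61.5 ± 18.8, 83.0 ± 13.6, 67.4 ± 16.4 and 54.9 ± 11.4. VCL (chromosome 4, 25137362 to 25252305) had means of 165 ± 32.8, 141 ± 26.9, 116 ± 38.1 and 108 ± 26.6. For these 3 genes, every pair of groups that were next to each other in the order of the means overlapped.

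**Figure D1:**
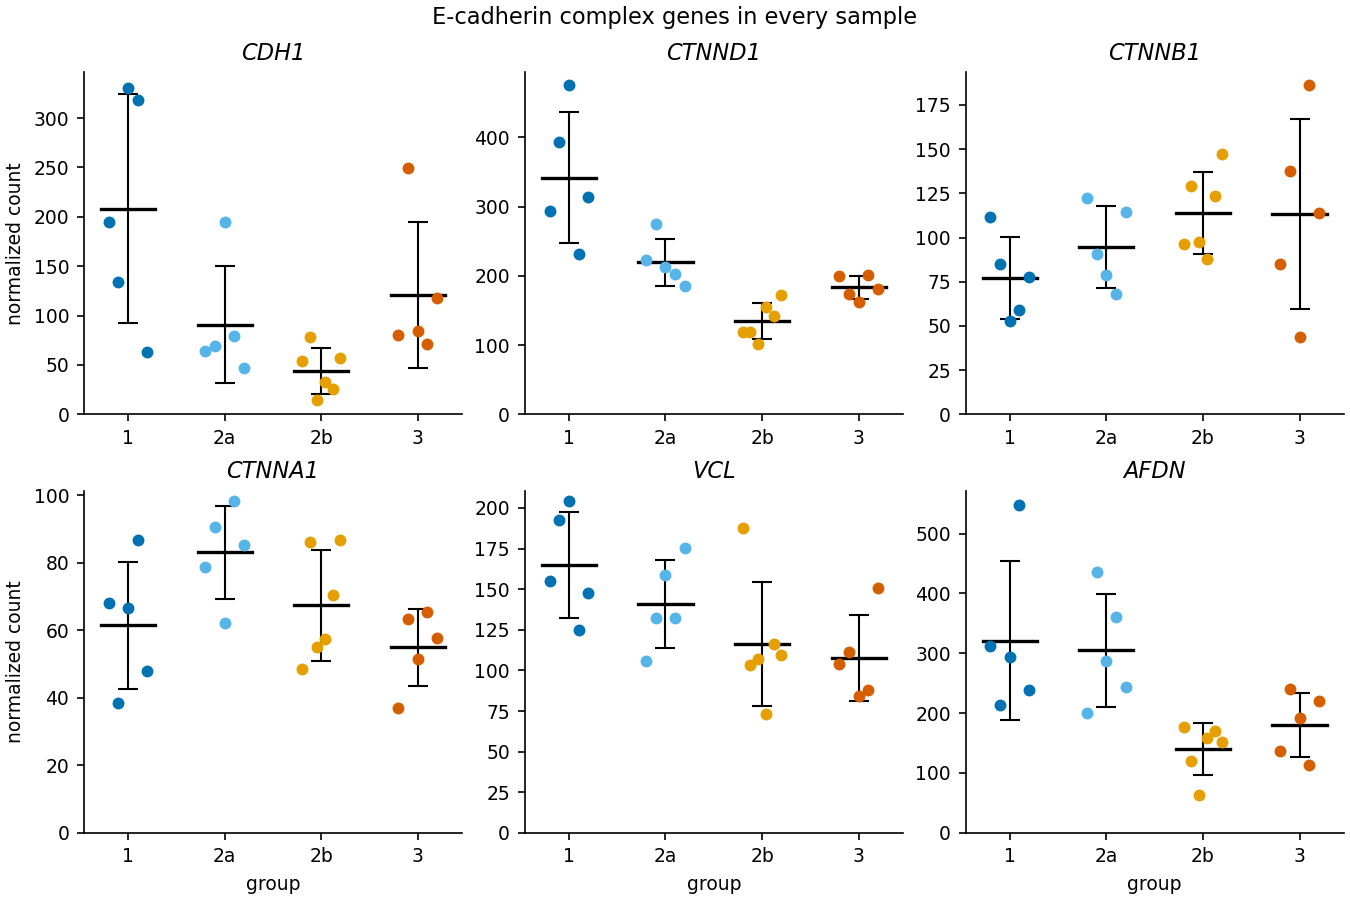
Normalized count (y axis, from 0, a separate scale for each gene) of the 6 genes in every sample of groups 1, 2a, 2b and 3 (x axis). Points are samples, the thick line is the mean and the bars are ± 1 SD. CTNND1 and AFDN of group 2b lie wholly below group 2a, and CDH1 has 1 sample far above the others in group 2a (194) and in group 3 (249).

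To ask whether the complex differed between stages 1 and 2 in tumor cell-rich tissue, group 2a was compared with group 1. CDH1 was 2.29-fold lower on average in group 2a (log2 fold change −1.20, SE 0.467) and CTNND1 1.55-fold lower (−0.63, SE 0.204), but neither passed the test (adjusted p = 0.207 and 0.140; edgeR quasi-likelihood test with Benjamini-Hochberg adjustment over all genes tested). The log2 fold changes of CTNNA1, CTNNB1, VCL and AFDN were 0.44 (SE 0.239), 0.30 (SE 0.250), −0.22 (SE 0.195) and −0.06 (SE 0.277), with adjusted p from 0.361 to 0.933. Mean DV200, the share of RNA fragments over a set length, was 68.5% in group 1 and 73.7% in group 2a, and with DV200 as a covariate CDH1 was at −2.36 (adjusted p = 0.452). None of the 6 genes was thus called at an adjusted p of at most 0.05, where 0.527% of all 11200 genes tested were called, and none separated the groups, against 5.65% of all genes. DESeq2 called none of the 6 either, and 2 of 6, CDH1 and CTNND1, passed an unadjusted p of 0.05 in edgeR, as did 17.9% of all genes. In the fit of all 4 groups, the CTNND1 difference passed (adjusted p = 0.0449).

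Stages 2 and 3 were compared in lymphocyte-rich tissue, as group 3 against group 2b. CDH1 was 2.73-fold higher on average in group 3 (log2 fold change 1.45, SE 0.401), the smallest p of the 6 members and rank 175 among all genes, and was not called by edgeR (adjusted p = 0.168) but by DESeq2 (adjusted p = 0.0258). With the keratinocyte level, a mean over keratinocyte markers in each sample, as a covariate it was 0.65 (adjusted p = 0.528), and it was 1.87 against only the pooled samples of group 2b and 0.86 against only the single-dog samples (adjusted p = 0.214 and 0.998). CTNND1 was 1.36-fold higher (0.44, SE 0.156, adjusted p = 0.263). The other 4 members had log2 fold changes from −0.30 (CTNNA1) to 0.36 (AFDN) with adjusted p of at least 0.575. Accordingly 0 of 6 members were called, where 0.111% of 11685 genes were, and 0 of 6 separated the groups, against 2.11% of all genes. The same 2 members, CDH1 and CTNND1, passed an unadjusted p of 0.05, as did 13.1% of all genes. The 6 B cell markers had a median log2 fold change of −1.33 in this comparison, and none of them was called.

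The difference between the 2 stage comparisons was tested for all 6 members in a fit of all 4 groups. It was taken as the log2 fold change of group 3 vs group 2b minus that of group 2a vs group 1. CDH1 and CTNND1 had opposite signs in the 2 comparisons, as did CTNNA1, CTNNB1 and AFDN, whereas VCL did not. The 2 comparisons differ in the stages and in the kind of tissue, and these cannot be told apart. The difference was 2.65 (SE 0.661, adjusted p = 0.0243) for CDH1 and 1.07 (SE 0.249, adjusted p = 0.0170) for CTNND1. These 2 of 6 members were called, where 5.34% of 12505 genes were. The differences of CTNNA1 (−0.73, SE 0.321), CTNNB1 (−0.31, SE 0.399), VCL (0.11, SE 0.303) and AFDN (0.43, SE 0.398) were not, with adjusted p from 0.192 to 0.886. Keratinocyte markers moved the same way: their median log2 fold change was −2.04 over 12 tested markers for group 2a vs group 1 and 1.73 over 11 for group 3 vs group 2b, although none of them was called in either comparison. For the difference itself, PKP1 (3.76), SFN (3.98) and TRIM29 (4.61) were called (adjusted p = 0.0433, 0.0470 and 0.0470). The other keratinocyte markers tested were not. With the keratinocyte level as a covariate, the difference was 2.05 for CDH1 (adjusted p = 0.235) and 1.12 for CTNND1 (adjusted p = 0.0658), and neither was called. Without group 3 replicate 2, that of CDH1 was 2.20 (adjusted p = 0.0520), and with DV200 as a covariate that of CTNND1 was 0.97 (adjusted p = 0.147). The DV200 of group 3 replicate 5 differs between the labels, which were used, and the study's list of samples. With DV200 as a covariate and that sample left out, the differences of CDH1 (3.50, adjusted p = 0.0511) and CTNND1 (0.97, adjusted p = 0.159) were not called.

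Lymphocyte-rich and tumor cell-rich tissue of stage 2 were compared in groups 2b and 2a, a comparison the study did not list. The 2 groups came from different dogs, so the kind of tissue and the dogs cannot be told apart. AFDN was 2.18-fold lower in group 2b (log2 fold change −1.13, SE 0.255, adjusted p = 0.00788) and CTNND1 1.64-fold lower (−0.71, SE 0.162, adjusted p = 0.00804). CDH1 was 2.06-fold lower on average without passing the test (−1.04, SE 0.424, adjusted p = 0.112). It was at −0.57 (adjusted p = 0.327) without group 2a replicate 3 and at −0.44 (adjusted p = 0.758) with the pools of group 2b left out. The log2 fold changes of CTNNA1 (−0.30, SE 0.199), VCL (−0.28, SE 0.215) and CTNNB1 (0.25, SE 0.195) had adjusted p from 0.334 to 0.415. Thus 2 of 6 members were called, both lower, where 16.5% of 11545 genes were called in either direction and 7.64% as lower in group 2b. The same 2 genes separated the groups, against 10.5% of all genes. The summed T cell markers were higher in every sample of group 2b than in any of group 2a, 5 of 6 B cell markers were called as higher, and the part of cell composition in these differences was not tested. With the keratinocyte level as a covariate both genes were still called (adjusted p = 0.0209 for CTNND1 and 0.0202 for AFDN). When group 2b was reduced to its 2 single-dog samples, neither was (adjusted p = 0.105 and 0.180), and 111 genes in all were called. Over all 22 alternatives, the log2 fold change ran from −0.88 to −0.62 for CTNND1 and from −1.25 to −0.97 for AFDN.

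Group 3 was also set against group 1, which differs from it in stage, in the kind of tissue and in the dogs' ages, so that these cannot be told apart. CTNND1 was 1.86-fold lower in group 3 (log2 fold change −0.90, SE 0.194, adjusted p = 0.0120), and all 5 samples of group 3 lay below all 5 of group 1. AFDN (−0.83, SE 0.282) and VCL (−0.62, SE 0.208) were lower on average with adjusted p = 0.0673 and 0.0671, and both passed in DESeq2 (0.0338 and 0.0491). CDH1 (−0.79, SE 0.448), CTNNB1 (0.55, SE 0.343) and CTNNA1 (−0.17, SE 0.272) had adjusted p from 0.265 to 0.739. Hence 1 of 6 members was called, lower, where 13.9% of 11470 genes were called in either direction and 6.81% as lower in group 3, and 1 of 6 separated the groups, against 11.9% of all genes. Mean DV200 was 68.5% in group 1 and 73.2% in group 3, and with DV200 as a covariate CTNND1 was not called (−0.97, adjusted p = 0.131), nor was it with group 3 replicate 5 left out as well (−0.98, adjusted p = 0.251). The comparisons share samples, so their values are not independent.

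**Figure D2:**
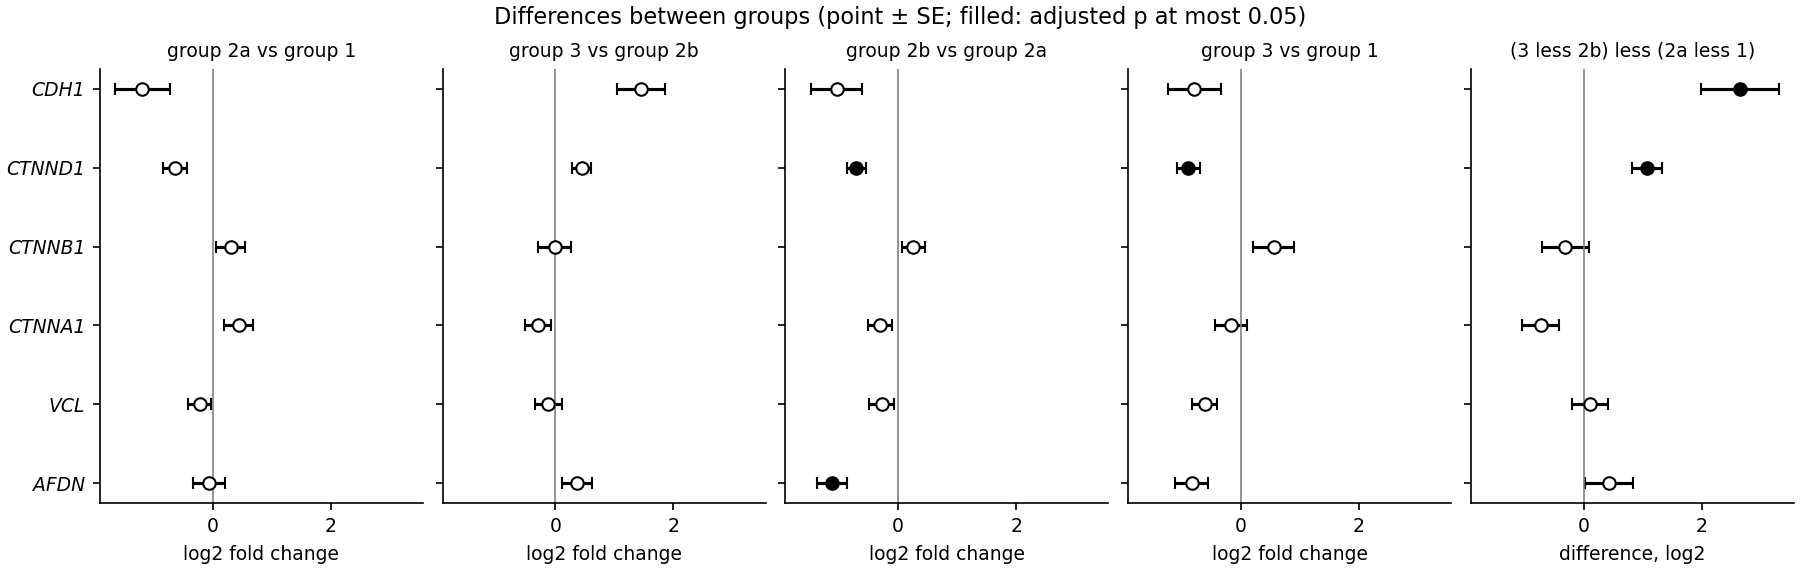
Log2 fold change of each gene in the 4 comparisons and the difference of the 2 stage changes (x axis, right panel), with ± 1 SE from edgeR. Filled points have an adjusted p of at most 0.05: CTNND1 and AFDN in group 2b vs group 2a (−0.71 and −1.13), CTNND1 in group 3 vs group 1 (−0.90), and CDH1 and CTNND1 for the difference (2.65 and 1.07).

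Whether CDH1 followed the keratinocyte content was asked within each kind of tissue, using the mean log2(normalized count + 1) of the 14 keratinocyte markers. In the 11 lymphocyte-rich samples the values rose together, with Pearson's r = 0.88 (p = 0.00029, adjusted over the 2 tissues 0.00058; 2-sided permutation test with 100000 resamples) and Spearman's rho = 0.71 (p = 0.0180, adjusted 0.0359). Without the 2 samples farthest from the median keratinocyte level, r was 0.83 (permutation p = 0.00931, adjusted 0.0186) and rho was 0.52 (permutation p = 0.161, adjusted 0.245). After removing the group means r was still 0.83 (permutation p = 0.00208, adjusted 0.00416). The 3 samples of group 2b with the lowest summed keratinocyte markers, 206, 233 and 269, were also those with the lowest CDH1, 32.9, 14.9 and 25.1. They are replicates 4, 3 and 5, the 3 pools of 4 dogs. Group 3 replicate 2, with the highest sum of the lymphocyte-rich samples (7285), had the highest CDH1 of them.

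In the 10 tumor cell-rich samples no such relation passed the test, with r = 0.24 (permutation p = 0.519, adjusted 0.519) and rho = 0.38 (permutation p = 0.280, adjusted 0.280). Without the 2 samples farthest from the median, r was 0.49 (permutation p = 0.223), and after removing the group means it was −0.12 (permutation p = 0.740). Whether the relation differed between the 2 kinds of tissue was not tested. Group 2a replicate 3 had the lowest keratinocyte sum of these samples, 281, and a CDH1 of 194, the highest of its group. Its gland epithelium sum of 260 was the highest of the series, and 238 of it was KRT18. Conversely, group 1 replicate 3 had the highest CDH1 of the series, 331, at a keratinocyte sum of 2921, below its group's median.

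**Figure D3:**
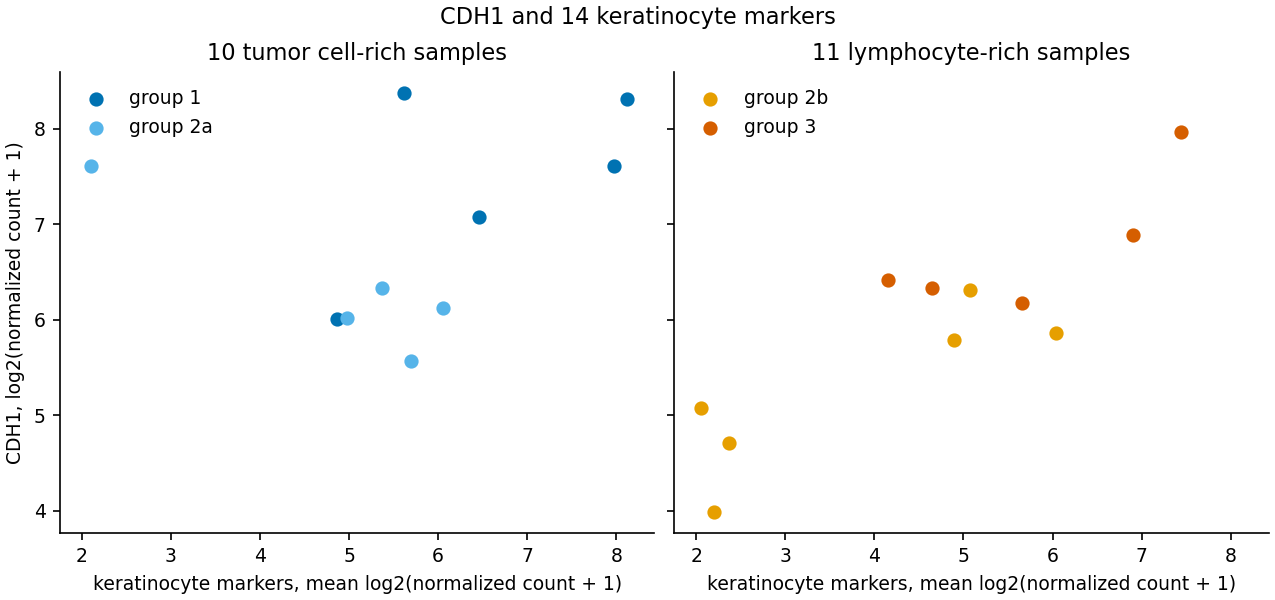
CDH1 as log2(normalized count + 1) (y axis) against the mean log2(normalized count + 1) of 14 keratinocyte markers (x axis), 1 point per sample. In the 11 lymphocyte-rich samples (right) the values rise together (r = 0.88), and in the 10 tumor cell-rich samples (left) r was 0.24 and did not pass the test, with a sample of group 2a at the upper left.

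The genes whose pattern was most like that of each member were taken by the smaller of the Pearson correlations within the 10 tumor cell-rich and the 11 lymphocyte-rich samples, given as a description over samples that share their scaling. For CDH1 these were GNG14 (0.78), IRX3 (0.78), LOC119878072 (0.77), CHCHD2 (0.74) and DHRS9 (0.71). None was on the keratinocyte list. The mean level of that list had r = 0.24 with CDH1 in tumor cell-rich samples, so a rule on the smaller value could hardly pick its genes. CTNNA1 was most like B2M (0.86), which encodes the light chain of class I MHC molecules, PPP1R12A (0.85) and GOLGA4 (0.81). The closest genes were WTAP (0.67), ARMC10 (0.65) and ORAI1 (0.65) for CTNND1, LOC102156621 (0.78), SLC30A1 (0.76) and RFXANK (0.75) for CTNNB1, ZFHX2 (0.75), SYAP1 (0.65) and CLCN3 (0.64) for VCL, and RGS17 (0.79), CEP170B (0.78) and LOC111094534 (0.76) for AFDN. No member was among the closest genes of another. Among the members themselves, the highest correlation was that of CDH1 with AFDN in lymphocyte-rich samples (r = 0.68, n = 11), and in tumor cell-rich samples CDH1 and CTNNB1 had r = −0.62 (n = 10).

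The genes around the complex were then counted by list, to be read against the share of all genes called: 0.527% in group 2a vs group 1, 0.111% in group 3 vs group 2b, 16.5% in group 2b vs group 2a, 13.9% in group 3 vs group 1 and 5.34% for the difference of the 2 stage changes.

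Other proteins of the adherens junction were taken from a list of 22, of which 21 were found. IQGAP1, a scaffold that binds E-cadherin and beta-catenin, was 44.0 to 104 in group 1 and 186 to 336 in group 2a, with no overlap, and was higher in group 2a by 1.79 on the log2 scale (SE 0.239, adjusted p = 0.0334). It was the only one of 16 tested junction genes called in that comparison, and was called in 9 of 19 alternatives. In group 3 it was also higher than in group 1 (1.53, SE 0.258, adjusted p = 0.00437), as was ACTN1, the actin cross-linker alpha-actinin 1 (1.44, SE 0.264, adjusted p = 0.00601), and these 2 of 17 tested genes were called, where 13.9% of all genes were. None of 16 was called in group 2b vs group 2a and none of 18 in group 3 vs group 2b. JUP is plakoglobin, which can take the place of beta-catenin on cadherins and is also a part of desmosomes. It had means of 254 ± 144, 76.6 ± 41.1, 52.8 ± 13.8 and 138 ± 109 in groups 1, 2a, 2b and 3 (SD). Its difference of the 2 stage changes was called (3.09, SE 0.659, adjusted p = 0.0119), as were those of NECTIN1, a nectin that afadin binds (2.23, SE 0.586, adjusted p = 0.0320), and IQGAP1 (−2.08, SE 0.387, adjusted p = 0.00699). With the keratinocyte level as a covariate, those of JUP (1.03, adjusted p = 0.291) and NECTIN1 (0.70, adjusted p = 0.553) were not called.

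Of 9 other cadherins, 6 were found and 4 tested, and none was called in any of the 4 comparisons. CDH3, the P-cadherin of basal keratinocytes and hair follicles, measured 42.0 ± 27.5 in group 1 and 11.1 ± 3.95 in group 2a (SD, log2 fold change −1.90, adjusted p = 0.111). CDH2, N-cadherin, was at no more than 6 reads in any sample and at 0 in all of group 3. In group 3 vs group 2b, CDH6 had the largest difference of these genes (1.26, SE 0.986, adjusted p = 0.615), and in group 2b vs group 2a as well (−2.77, SE 0.941, adjusted p = 0.0594).

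Among 9 transcription factors known to repress CDH1, 7 were tested. In group 2b, 3 of 7 were higher than in group 2a, where 16.5% of all genes were called in either direction: TCF4 (log2 fold change 0.86, SE 0.137, adjusted p = 0.000903), TCF3 (0.77, SE 0.214, adjusted p = 0.0242) and ZEB2 (0.73, SE 0.213, adjusted p = 0.0314). ZEB2 was called in 12 of 22 alternatives and TCF3 in 14. TCF4 was also higher in group 3 than in group 1 (1.54, SE 0.359, adjusted p = 0.0169), the only 1 of 7. None was called in the 2 stage comparisons, in which TWIST2 (−1.36, adjusted p = 0.213, group 2a vs group 1) and TCF3 (−0.84, adjusted p = 0.279, group 3 vs group 2b) had the largest differences. These factors are also made by lymphoid and stromal cells, and T cell markers differed between the same groups; their part in the differences was not tested. Of 10 factors known to keep up epithelial CDH1, 3 to 6 were tested and none was called in the 4 comparisons, the largest difference being that of ESRP1 in group 2b vs group 2a (−1.94, SE 0.930, adjusted p = 0.179). ESRP1 was at 137 in group 2a replicate 3, the sample with the highest gland epithelium sum (mostly KRT18), and at 10.4 to 21.3 in the other 4 samples of that group, with 0 to 34.6 in group 2b. The difference of the 2 stage changes was called for ESRP2, an epithelial splicing regulator (3.64, SE 1.02, adjusted p = 0.0404), in 9 of 22 alternatives. Of the 21 fits that leave out 1 sample, ESRP2 was tested in 16. In the rest too few samples had the 10 counts needed, so its value rests on few samples with that count.

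Enzymes that cut, phosphorylate or degrade the complex were taken as 18 genes, 17 of them tested. None was called in either stage comparison, in which PTPRK (−0.63, adjusted p = 0.701) and PTPRF (1.69, adjusted p = 0.128) had the largest differences. In group 2b, FYN, a Src-family kinase of T cells that also phosphorylates catenins, was higher than in group 2a (1.20, SE 0.242, adjusted p = 0.00376), as was PSEN2, a catalytic subunit of gamma-secretase (1.24, SE 0.291, adjusted p = 0.00956). In group 3 vs group 1, FYN (1.19, SE 0.289, adjusted p = 0.0191) and the phosphatase gene PTPRF (1.44, SE 0.431, adjusted p = 0.0436, called in 10 of 20 alternatives) were higher, and PTPRJ was lower (−1.06, SE 0.251, adjusted p = 0.0181). For the difference of the 2 stage changes, PTPRF (2.14, SE 0.612, adjusted p = 0.0437) and PSENEN (0.67, SE 0.181, adjusted p = 0.0352) were called, in 11 and 15 of 28 alternatives.

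The nuclear side of beta-catenin was examined with 16 TCF/LEF partners and common targets, of which 10 were tested in group 2b vs group 2a. TCF7, a TCF factor typical of T cells, was 138 to 321 in group 2b and 13.5 to 40.8 in group 2a (log2 fold change 3.32, SE 0.289, adjusted p = 1.3e-05). DKK1, a secreted Wnt inhibitor, was also higher (1.81, SE 0.262, adjusted p = 0.000466), whereas CCND1, cyclin D1, was 242 to 721 in group 2b and 1384 to 2777 in group 2a (−1.77, SE 0.249, adjusted p = 0.000395). In group 3 vs group 1, 1 of 9 was called, TCF7L2 (2.84, SE 0.511, adjusted p = 0.00557), which averaged 6.86 ± 3.91 in group 1 and 50.3 ± 22.7 in group 3 (SD). None of 7 was called in group 2a vs group 1, where 2 of 7 separated the groups, against 5.65% of all genes: TCF7L2 (2.01, SE 0.477, adjusted p = 0.0733) and CCND1 (1.04, SE 0.247, adjusted p = 0.0738), which was 510 to 1254 in group 1. Both passed in DESeq2 (adjusted p = 0.00190 and 0.00508). None was called of 11 in group 3 vs group 2b, where LEF1 had the largest difference (−1.21, adjusted p = 0.394). AXIN2, a negative regulator of the pathway that is itself a Wnt target, averaged 13.6 to 15.5 in the 4 groups.

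The destruction complex, which marks cytoplasmic beta-catenin for degradation, was covered by 9 genes, all tested. It held no called gene in the stage comparisons or in group 2b vs group 2a. The largest differences there were those of AMER1 (−0.70, adjusted p = 0.340, group 2a vs group 1), APC (−0.35, adjusted p = 0.396, group 3 vs group 2b) and AXIN1 (−0.45, adjusted p = 0.0993, group 2b vs group 2a). In group 3, AXIN1, the scaffold of the complex, was lower than in group 1 (−0.68, SE 0.187, adjusted p = 0.0326, called in 12 of 20 alternatives), as was FBXW11, a subunit of the ubiquitin ligase (−0.63, SE 0.161, adjusted p = 0.0232), and the kinase gene CSNK1A1 was higher (0.61, SE 0.142, adjusted p = 0.0169). The difference of the 2 stage changes was called for APC (−0.99, SE 0.251, adjusted p = 0.0272).

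Vinculin also sits in focal adhesions, for which 16 partners were examined. In group 2b vs group 2a, TNS3 (tensin 3; 1.98, SE 0.411, adjusted p = 0.00466) and PXN (paxillin; 0.77, SE 0.182, adjusted p = 0.00996) were higher, 2 of 16 tested, where 16.5% of all genes were called. In group 3 vs group 1, TNS3 (2.26, SE 0.423, adjusted p = 0.00676) and TLN1, talin 1, which recruits vinculin to integrins (0.65, SE 0.146, adjusted p = 0.0152), were higher, also 2 of 16, where 13.9% of all genes were. None was called in the stage comparisons, in which TNS3 had the largest difference for group 2a vs group 1 (0.58, SE 0.576, adjusted p = 0.649) and the log2 fold changes of group 3 vs group 2b ran from −0.52 to 0.61. ITGB1, the integrin beta 1 chain, was called for the difference of the 2 stage changes (0.75, SE 0.196, adjusted p = 0.0306). Around afadin, 10 genes were tested. RAP1A, which encodes a small GTPase that afadin binds, was lower in group 3 than in group 1 (−0.52, SE 0.159, adjusted p = 0.0460), in 7 of 20 alternatives. RAPGEF1, which activates RAP1 proteins, was called for the difference of the 2 stage changes (0.90, SE 0.193, adjusted p = 0.0121). None was called in the other 3 comparisons, in which F11R (−0.90, adjusted p = 0.274, group 2a vs group 1), RHOA (−1.69, adjusted p = 0.400, group 3 vs group 2b) and PARD3 (−0.65, adjusted p = 0.296, group 2b vs group 2a) had the largest differences.

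Part of these list genes lost their call with other samples or a covariate. In group 3 vs group 1, 13 list genes were called, where 13.9% of all genes were. None of the 13 was called with DV200 as a covariate (adjusted p from 0.116 to 0.514), where 62 genes in all were called. Their log2 fold changes kept their sign and were 0.473 (PTPRJ) to 1.21 (TLN1) times the value without it, with 2.71 for TCF7L2 and 1.52 for ACTN1. IQGAP1 in group 2a vs group 1 was at 1.82 with DV200 and was not called (adjusted p = 0.452). In group 2b vs group 2a, 11 list genes were called, where 16.5% of all genes were. Of these 11, DV200 removed 0, whereas 9 were not called with the single-dog samples of group 2b, leaving TCF7 and CCND1. For the difference of the 2 stage changes, 9 list genes were called, where 5.34% of all genes were. With the keratinocyte level as a covariate 7 of 9 lost the call and with DV200 8 of 9, and IQGAP1 kept it in both. With DV200 the values were 0.796 (ESRP2) to 1.25 (APC) times those without it. With the keratinocyte level they were 0.313 to 0.332 times for JUP, NECTIN1 and PTPRF and 0.671 times for ESRP2. The other genes were at 0.930 (PSENEN) to 1.195 (APC) times.

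**Figure D4:**
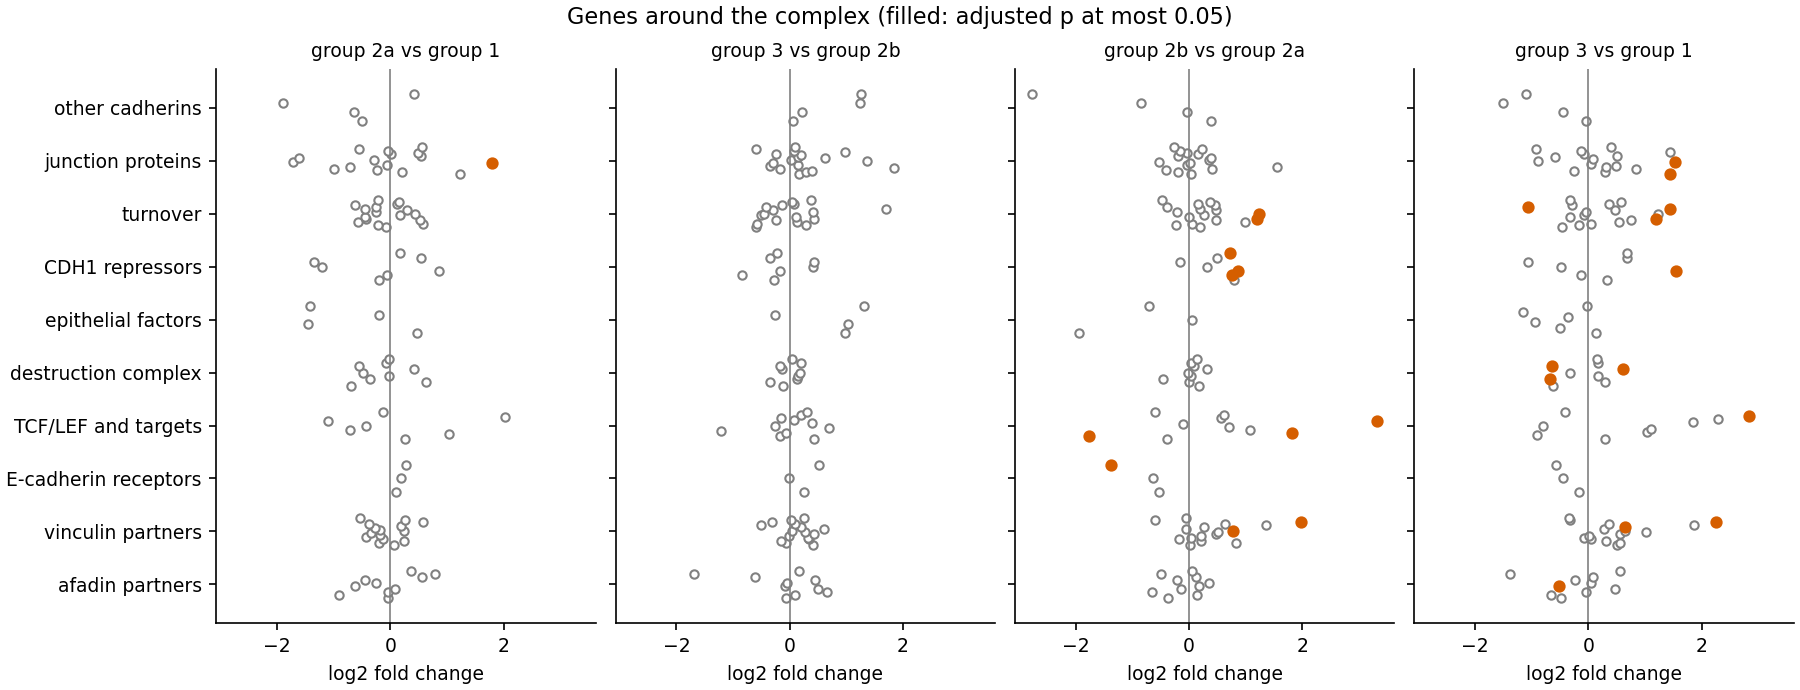
Log2 fold change (x axis) of every tested gene in 10 lists around the complex (y axis) for the 4 comparisons, 1 point per gene. Filled points have an adjusted p of at most 0.05: 1 gene in group 2a vs group 1 (IQGAP1), none in group 3 vs group 2b, and several in the comparisons of lymphocyte-rich with tumor cell-rich groups, among them TCF7 (3.32) and CCND1 (−1.77).

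Lymphocytes can bind E-cadherin on other cells through the integrin chains encoded by ITGAE and ITGB7 and through the inhibitory receptor KLRG1. KLRG1 measured 173, 58.4, 48.9, 111 and 87.2 in group 2a and 41.1, 36.4, 33.5, 52.0, 31.2 and 26.1 in group 2b. It was lower in the lymphocyte-rich group 2b (log2 fold change −1.39, SE 0.305, adjusted p = 0.00667), with only the highest sample of group 2b overlapping with group 2a. In group 1 it averaged 79.0 ± 34.4 and in group 3 52.9 ± 36.0 (SD, log2 fold change of group 3 vs group 1 −0.57, adjusted p = 0.470). ITGB7 averaged 135 ± 61.0, 152 ± 16.9, 98.8 ± 39.9 and 98.6 ± 18.4 in groups 1, 2a, 2b and 3, and group 2b vs group 2a gave −0.63 (SE 0.242, adjusted p = 0.0938). ITGAE was low throughout, with means of 16.8 ± 10.5, 18.2 ± 13.1, 12.5 ± 6.00 and 15.0 ± 6.45 and values of 5.57 to 36.7 in single samples. None of these 3 genes was called in either stage comparison (adjusted p of at least 0.613).

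**Figure D5:**
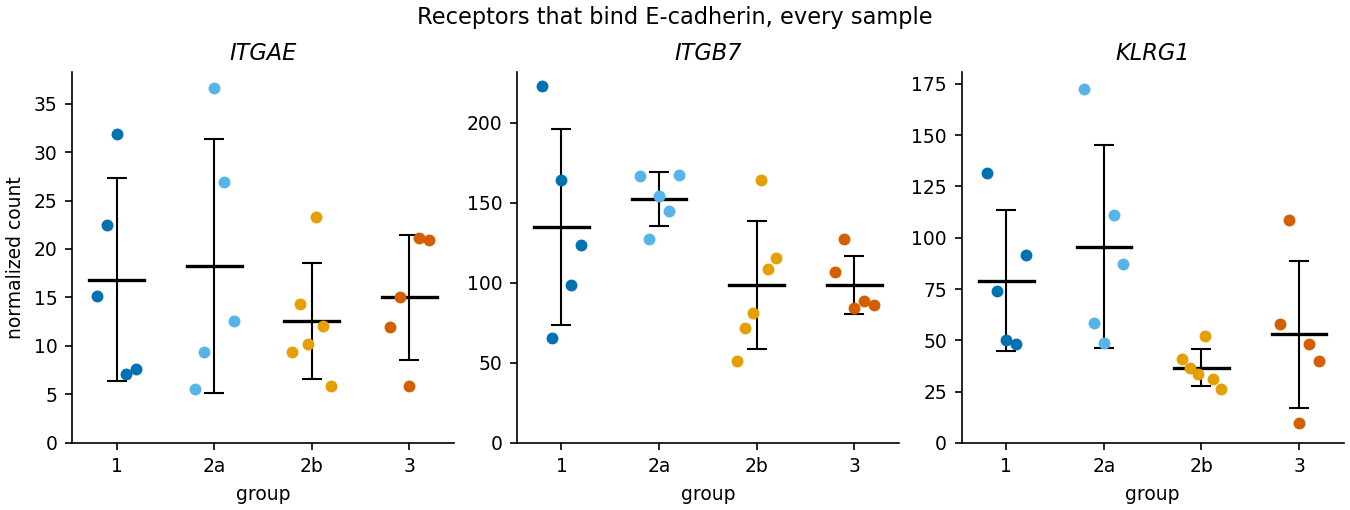
Normalized count (y axis, from 0, a separate scale for each gene) of ITGAE, ITGB7 and KLRG1 in every sample of groups 1, 2a, 2b and 3 (x axis). Points are samples, the thick line is the mean and the bars are ± 1 SD. KLRG1 is 48.9 to 173 in group 2a and 26.1 to 52.0 in group 2b.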

How the data were processed

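Libraries had been made with the QuantSeq 3′ FWD kit, and the authors used Cutadapt, STAR (assembly UU_Cfam_GSD_1.0) and, per the labels, featureCounts. Handling of strand and of reads matching several places was not given in the sources used here. The authors deposited raw counts per gene and sample in 2 tables, which hold the same counts for all 21 samples, and a normalized count (a signal), found to be the raw count over a size factor that is constant within a sample. Columns of the authors' own comparisons (fold changes and p-values from DESeq2) were not used. Groups and replicate numbers came from the labels, and 0 columns belonged to an unknown sample. Gene names carry a numbered ending, 3 for all 6 members, whose meaning is not stated. All 21399 genes matched the RefSeq table of that assembly, from which positions were taken.

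Raw counts of only the compared groups entered edgeR 4.0.16 (R 4.3.3), scaled by TMM and tested by quasi-likelihood, for genes with at least 10 counts in at least 5 of these samples. A gene was called where its p, adjusted over all genes tested (Benjamini-Hochberg), was at most 0.05. The difference of the 2 stage changes was a contrast in a fit of all 4 groups. The script was tested on simulated data. Alternatives were DESeq2 1.42.0, limma 3.58.1, other scaling factors, no count filter, all 4 groups in 1 fit, covariates (DV200, keratinocyte level), a replicate block, a log2 fold change of at least 1, parts of group 2b, and leaving 1 sample out at a time. The keratinocyte covariate for the difference of the stage changes, and the DV200 covariate with group 3 replicate 5 left out, were added with the values in view. Correlations used log2(normalized count + 1) in Python 3.11.15.

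The members and the gene lists were chosen with earlier results of these data known. Named were all members, the receptors, the called genes of each list (up to 5 per list and comparison), the gene with the largest difference where none was called, and the genes most like each member. JUP, CDH2, CDH3, AXIN2 and, for group 2a vs group 1, CCND1 were also named after their values had been seen. The same holds for KRT18 and for the list genes and keratinocyte markers called for the difference of the stage changes. CTNNBIP1, NECTIN4, CDH4, CDH10, CDH26, CD1A and LGALS7 were not analysed here, and 1 gene of the vinculin list is not reported here. Replicates are different dogs or pools, a replicate number stands for different dogs in different groups, and limits from the depth cover counting error only.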

Additional observations from a re-analysis of the deposited data

Results flagged for a closer look

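In groups of 5 or 6 samples, a sample was picked out where its gap to the nearest other sample was a large share of the group's range (Dixon's criterion). For normally distributed values, chance meets it in about 1 of 20 groups. It was applied to normalized counts and not to their log2, so that rate is approximate. Of 24 combinations of member and group, 2 met it, both for CDH1. Whether 2 exceeds what chance gives was not tested. Group 2a replicate 3 had 194 normalized counts, where the other 4 samples had 46.5 to 79.5, and its summed keratinocyte markers, 281, were the lowest of its group. Its gland epithelium markers summed to 260, against 13.5 to 61.0 in the other 4, and KRT18 among them was at 238, against 0.93 to 40.9. The part of this in its CDH1 value was not tested. Group 3 replicate 2 had 249, where the other 4 had 71.5 to 117, and its keratinocyte sum, 7285, was the highest of its group. Without group 2a replicate 3 the log2 fold change of CDH1 in group 2a vs group 1 was −1.68 (adjusted p = 0.119 in edgeR), and without group 3 replicate 2 that of group 3 vs group 2b was 1.00 (adjusted p = 0.328), neither of them called.

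The change from stage 2 to 3 in lymphocyte-rich tissue was set against that from stage 1 to 2 in tumor cell-rich tissue. These changes differed by 2.65 on the log2 scale for CDH1 and by 1.07 for CTNND1. The stage step and the kind of tissue differ together here and cannot be told apart. The test was a contrast in the edgeR fit of all 4 groups (adjusted p = 0.0243 and 0.0170). Neither stage change was called by itself, keratinocyte markers moved the same way, and with the keratinocyte level as a covariate the differences were 2.05 for CDH1 (adjusted p = 0.235) and 1.12 for CTNND1 (adjusted p = 0.0658), not called.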

How the results depend on the processing

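Of the counts of members called, 101 alternatives stayed within 1.5 times the value given and 16 did not; the cause was not tested. For group 2a vs group 1 (0 called), all 4 groups in 1 fit gave 1 (CTNND1), and leaving out each sample gave 0 to 0. For group 3 vs group 2b (0), DESeq2 gave 1 (CDH1), and leaving out each sample 0 to 0. For group 2b vs group 2a (2), a log2 fold change of at least 1 gave 1, the single-dog samples of group 2b gave 0, and leaving out each sample 2 to 2. For group 3 vs group 1 (1), a log2 fold change of at least 1 gave 0, DESeq2 3, all 4 groups in 1 fit 2, DV200 as a covariate 0, DV200 as a covariate with group 3 replicate 5 left out 0, and leaving out each sample 1 to 2, with 2 without group 1 replicate 2, group 1 replicate 4 or group 3 replicate 5. For the difference of the stage changes (2), DV200 as a covariate gave 1, DV200 with group 3 replicate 5 left out 0, the keratinocyte level 0, and leaving out each sample 1 to 2, with 1 without group 3 replicate 2.

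Signs reversed only for members that were not called. AFDN in group 2a vs group 1 (−0.06) became 0.13 with DV200 and 0.25 with the keratinocyte level as a covariate, and ranged from −0.23 to 0.21 leaving out each sample. VCL in group 3 vs group 2b was 0.077 with only the pooled samples and −0.27 to 0.073 leaving out each sample, and CTNNB1 was 0.0048 with only the single-dog samples and −0.26 to 0.20. VCL in group 2b vs group 2a was 0.060 with the single-dog samples. For the difference of the stage changes, VCL and AFDN were −0.055 and −0.088 with the keratinocyte level, and VCL was −0.044 to 0.30 leaving out each sample. The correlation of CDH1 with keratinocyte markers in tumor cell-rich samples was −0.12 with the group means removed. Of the values for called list genes, 603 kept their call, 164 lost it and 0 reversed.

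The replicate numbers do not pair the dogs: deviations of same-numbered samples correlated at −0.271 to 0.114, −0.0693 to 0.138, −0.0584 to 0.114 and −0.0975 to 0.136 in group 2a vs 1, 3 vs 2b, 2b vs 2a and 3 vs 1. With the replicate block, 0, 0, 2 and 1 members were called in these comparisons, as without it, and 0, 0, 1301 and 1076 genes in all.

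Over all genes, 59 were called in group 2a vs group 1, against 642 with DESeq2, 493 with all 4 groups, 104 with limma, 1 with the keratinocyte level and 0 with DV200. In group 3 vs group 2b, 13 were called, against 178 with DESeq2, 8 with no count filter, 5 at a log2 fold change of at least 1, 2 with DV200 (3 with group 3 replicate 5 left out as well), 1 with the keratinocyte level and 0 with either subset of group 2b. The 1909 of group 2b vs group 2a became 1102 at a log2 fold change of at least 1 and 111 with the single-dog samples. The 1593 of group 3 vs group 1 became 955 at that fold, 2453 with all 4 groups and 62 with DV200 (25 without that sample), and the 668 for the difference became 1072 with DESeq2, 441 with no filter, 118 with the keratinocyte level and 60 with DV200, with or without that sample. Leaving out each sample gave 0 to 103, 0 to 78, 1497 to 1967, 860 to 1641 and 331 to 757.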
